A study of Mus musculus with 6 samples.

Results

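The 41 genes described here encode regulators and core components of early splice site recognition: 10 SR genes (Srsf), 19 hnRNP genes (Hnrnp), 9 subunits of the SF3A and SF3B complexes (Sf3a, Sf3b) and 3 genes of the U2 auxiliary factor (U2af). They were taken by gene symbol alone from the 10551 genes of a deposited mouse count table, without regard to their values. The symbol rule took 41 of the 43 protein-coding genes of these families in the GENCODE M21 annotation, and Hnrnpa1 and Srsf12 were not analysed here. RNA was measured in macrophages derived from the bone marrow of mice of the C57BL/6J strain. The study set 3 libraries of a macrophage-specific Dhps knockout, which the labels call Dhps_delta_Myel, against 3 control libraries. Dhps encodes deoxyhypusine synthase, the enzyme that begins the conversion of a lysine of the translation factor eIF5A to hypusine. The labels give the controls as control only, and name no Cre driver, floxed allele, age or stimulus. Nothing in them tells whether replicate libraries stand for separate mice or separate dishes. P-values therefore reflect the spread among these 6 libraries alone, and that spread may be technical.

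SR proteins bind exonic enhancers through RNA recognition motifs and recruit the splicing machinery through domains rich in arginine and serine. Proteins of the hnRNP families coat nascent transcripts, and many of them oppose SR proteins at nearby sites. The U2 auxiliary factor binds the polypyrimidine tract and the 3′ splice site, after which SF3A and SF3B, as parts of the U2 snRNP, settle on the branch point. Many SR and hnRNP genes limit their own expression through alternative exons that send the transcript to nonsense-mediated decay. Counts per gene do not separate such isoforms.

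The total count lay between 12960793 and 16224818 in the knockout libraries and between 11648710 and 15382816 in the control libraries. Values per library are CPM, counts scaled to a library of 1e+06, after scaling with the trimmed mean of M values, called normalized CPM below. Dhps itself had 13.2, 13.6 and 18.3 normalized CPM in knockout libraries 1, 2 and 3, against 24.1, 20.9 and 23.4 in control libraries 1, 2 and 3. All knockout libraries lay below all control libraries, but the log2 fold change of -0.59 missed an adjusted p under 0.05 (edgeR's quasi-likelihood test, adjusted p = 0.214). All 10 macrophage markers were measured, 7 of them with a log2 fold change below 0. Lyz2 was the 1 gene of all that fell (-1.04). Fcgr1 (-0.33) and Adgre1 (-0.18) had every knockout library below every control library without passing, and the other 7 ran from -0.12 for Csf1r to 0.11 for Mrc1 with overlapping groups. Of 16 neutrophil and precursor markers 13 were measured, and their summed level was 1351 to 1589 normalized CPM in knockout libraries and 845 to 1167 in control libraries. In that list 5 genes rose by the same test; Ctsg, Ly6g and Retnlg were not analysed here. Of 10 stromal markers 5 were measured, and Col1a2 (2.82) and Sparc (2.34) rose, at means of 2.76 and 2.89 normalized CPM in knockout and 0.393 and 0.582 in control libraries. Both lay under 1 normalized CPM in every control library. All genes of the deposited table exceeded 1 CPM in at least 3 libraries, so both entered it through the knockout libraries. Such entry by itself favours a higher knockout value, and the rise of these genes is a description only. No marker of the remaining lists passed. Of 8 megakaryocyte and platelet markers 6 were measured; 4 had every knockout library above every control library, and Pf4 (-0.29), the most abundant, had every one below. The mast cell and basophil list had 4 of its 7 genes in the table, with Mcpt8 at 2.00 and Prss34 at 1.70. Its other measured genes, Kit (0.11) and Cpa3 (-0.11), had overlapping groups. Mcpt8 and Prss34, like Tubb1 and Gp9 of the platelet list, lay under 1 normalized CPM in every control library. They too entered the table through the knockout libraries. All 3 measured of 7 dendritic cell markers lay above 0. Of 8 T and NK cell markers 2 were measured, Cd4 at 1.55 and Lck at -0.0023, of 6 B cell markers Cd79b (0.50) alone, and of 7 erythroid markers 0.

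RNA levels of these splicing factors in the knockout libraries lay close to those in the control libraries. None of the 41 genes passed an adjusted p under 0.05 in edgeR's quasi-likelihood test, in DESeq2 or in limma-voom, where 0.104% of all 10551 genes passed in edgeR, 0.0948% higher and 0.00948% lower. At an unadjusted p under 0.05, 4 of the 41 lay higher in the knockout libraries, Sf3a2, Hnrnpa3, Hnrnpu and Hnrnpl, and 0 lay lower, against 3.84% and 2.64% of all genes, 6.48% in both directions. DESeq2 and limma-voom also gave 4 and 0. In edgeR the 4 members higher at that unadjusted p became 1 without control library 1 and 2 without knockout library 3. Every knockout library lay above every control library in 9 of the 41, against 5.73% of all genes, and below in 1, against 5.45%. The log2 fold changes of knockout over control ran from -0.11 for Sf3b6 to 0.49 for Sf3a2, with a median of 0.04 over the 41 and of -0.0044 over all genes. The median standard error was 0.10. For 38 of the 41 genes the 95% interval of the fold change lay within 1.5-fold in both directions, and the 3 exceptions, Hnrnpa3, Hnrnph3 and Sf3a2, reached past 1.5-fold on the higher side. In RNA of a whole culture, fewer cells of a type and less RNA per cell cannot be told apart.

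**Figure D1:**
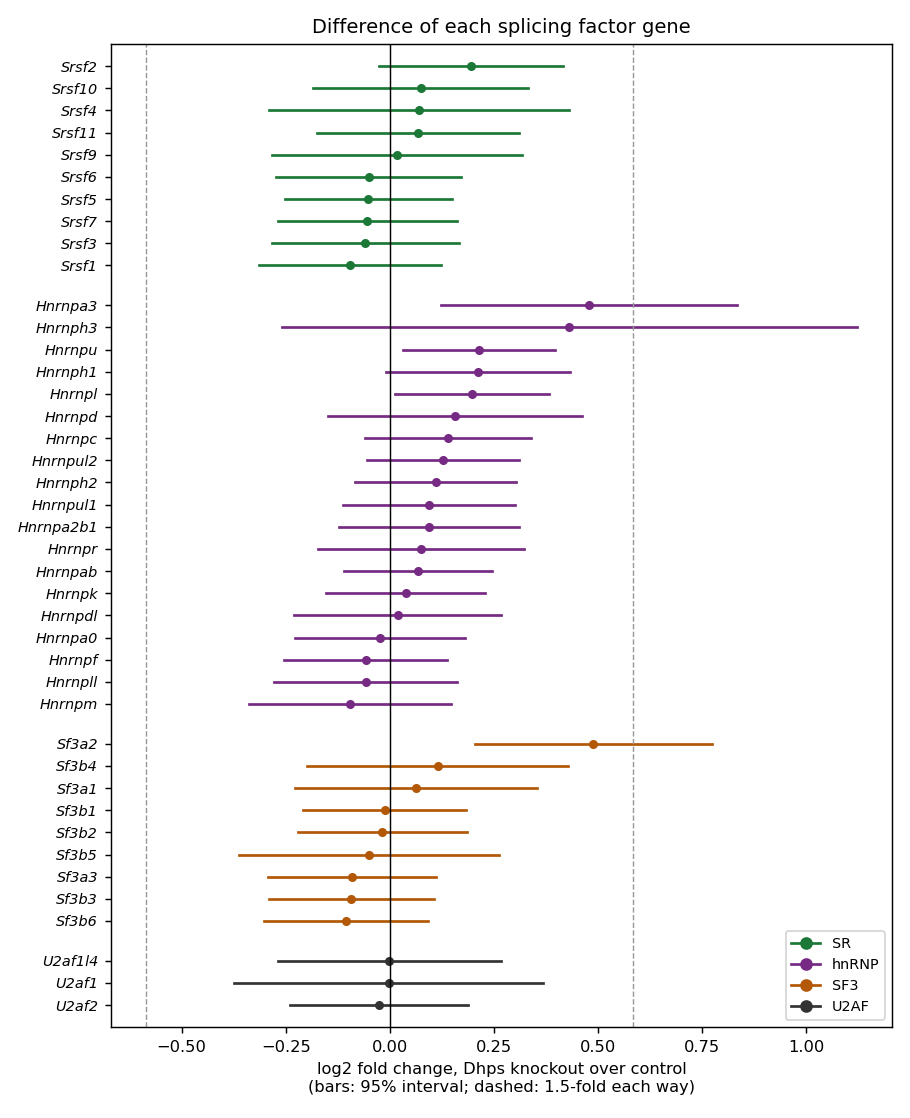
Log2 fold change of Dhps knockout over control for each of the 41 genes, by class, with bars for the 95% interval from edgeR's quasi-likelihood fit (n = 3 libraries a group) and dashed lines at 1.5-fold. Sf3a2, Hnrnpa3, Hnrnpu and Hnrnpl have intervals above 0, and 15 of 19 hnRNP genes lie above 0.

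Together the 41 genes took 0.270%, 0.266% and 0.275% of the counts in knockout libraries 1 to 3 and 0.253%, 0.258% and 0.266% in control libraries 1 to 3. By class, the summed level of the 19 hnRNP genes was 1439, 1459 and 1443 normalized CPM in the knockout libraries and 1336, 1318 and 1425 in the control libraries. All knockout libraries therefore lay above all control libraries, with means of 1447 ± 10.5 and 1360 ± 57.2 (SD, n = 3 each) and a ratio of 1.06. Control library 3, at 1425, lay close to knockout library 1, at 1439. The 10 SR genes summed to 526 ± 26.1 normalized CPM in knockout and 536 ± 23.2 in control libraries, the 9 SF3 genes to 623 ± 20.3 and 633 ± 32.8, and the 3 U2AF genes to 84.7 ± 8.12 and 85.7 ± 4.56 (SD, n = 3 each). In these 3 classes the groups overlapped. Of the marker sums, that of T and NK cells overlapped, at 33.6 to 43.0 normalized CPM in knockout and 34.1 to 44.4 in control libraries. The B cell marker Cd79b overlapped too, at 1.10 to 1.47 and 0.348 to 1.21. The other marker sums separated the groups as well. Beside the neutrophil sum given above, the dendritic sum was 316 to 324 normalized CPM in knockout and 211 to 304 in control libraries, the mast cell and basophil sum 5.36 to 7.79 and 2.00 to 4.44, and the stromal sum 11.4 to 16.7 and 7.39 to 10.9. The macrophage sum, most of it Lyz2, lay lower, at 14438 to 16885 in knockout and 23503 to 26181 in control libraries, as did the megakaryocyte sum, at 1197 to 1329 and 1421 to 1714. Most of the megakaryocyte sum was Pf4 (means of 1245 in knockout and 1517 in control libraries), while 5 of the 6 genes had log2 fold changes above 0. Most of the dendritic sum was Itgax (313 and 255). The macrophage, megakaryocyte and dendritic sums therefore follow their most abundant gene and do not describe whole lists. In the neutrophil list the most abundant gene, Mmp9 (0.31), had overlapping groups, and 12 of the 13 genes lay above 0. The mast cell and stromal sums include Mcpt8, Prss34, Col1a2 and Sparc, which entered the table through the knockout libraries. The median log2 fold change of the macrophage list was -0.07. The part of the marker genes in the hnRNP sum was not tested.

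**Figure D2:**
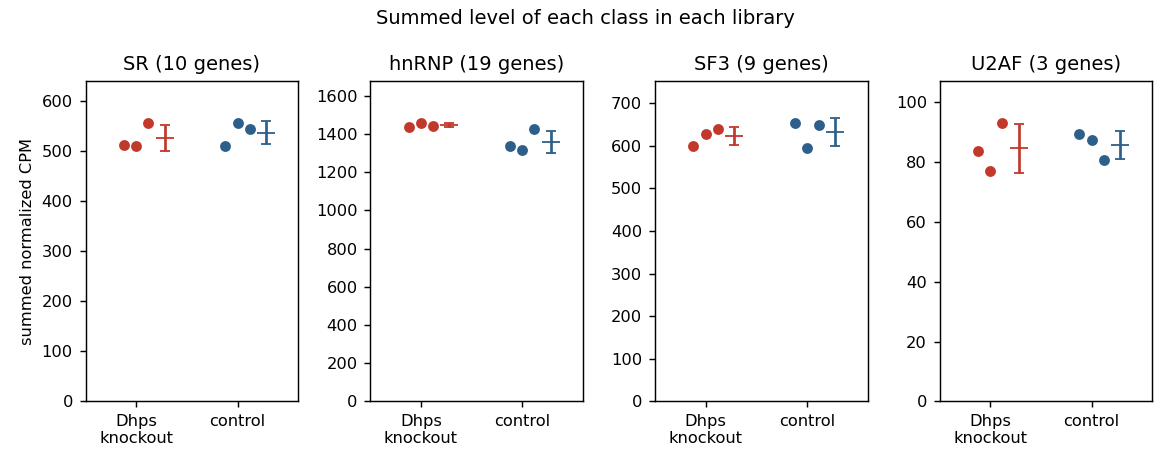
Summed normalized CPM of the genes of each class in each library (points), with the mean and SD of each group (n = 3 each), Dhps knockout on the left and control on the right of each panel. The knockout libraries of the hnRNP panel, between 1439 and 1459, lie above the control libraries, between 1318 and 1425, and the groups overlap in the other panels.

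Levels of different genes were compared as normalized CPM per kilobase of the deposited exon length. The most abundant of the 41 was Hnrnpk, at 117 ± 1.68 normalized CPM per kilobase in knockout and 114 ± 12.3 in control libraries (SD, n = 3 each). The least abundant was Hnrnph3, at 1.07 ± 0.392 and 0.791 ± 0.0505. Among SR genes Srsf5 (55.3 ± 3.02 in knockout and 57.3 ± 4.87 in control libraries) and Srsf3 (41.9 ± 5.34 and 43.7 ± 4.22) stood above the rest, and their values did not overlap each other in either group. Srsf2, Srsf1, Srsf7, Srsf9 and Srsf6 followed between 13.7 and 18.3 in both groups. Within this order Srsf2 and Srsf1 did not differ beyond their spread, nor did Srsf7, Srsf9 and Srsf6. Hnrnpab, Hnrnpu, Hnrnpl and Hnrnpc came next to Hnrnpk in their class, between 31.8 and 55.0. Of SF3 subunits, Sf3b1 (44.9 ± 3.98 and 45.3 ± 3.28) and Sf3b6 (43.2 ± 0.309 and 46.5 ± 2.47) did not differ in level beyond their spread. Sf3a2, Sf3b4 and Sf3a1 were the lowest SF3 subunits, all at or under 10.8.

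**Figure D3:**
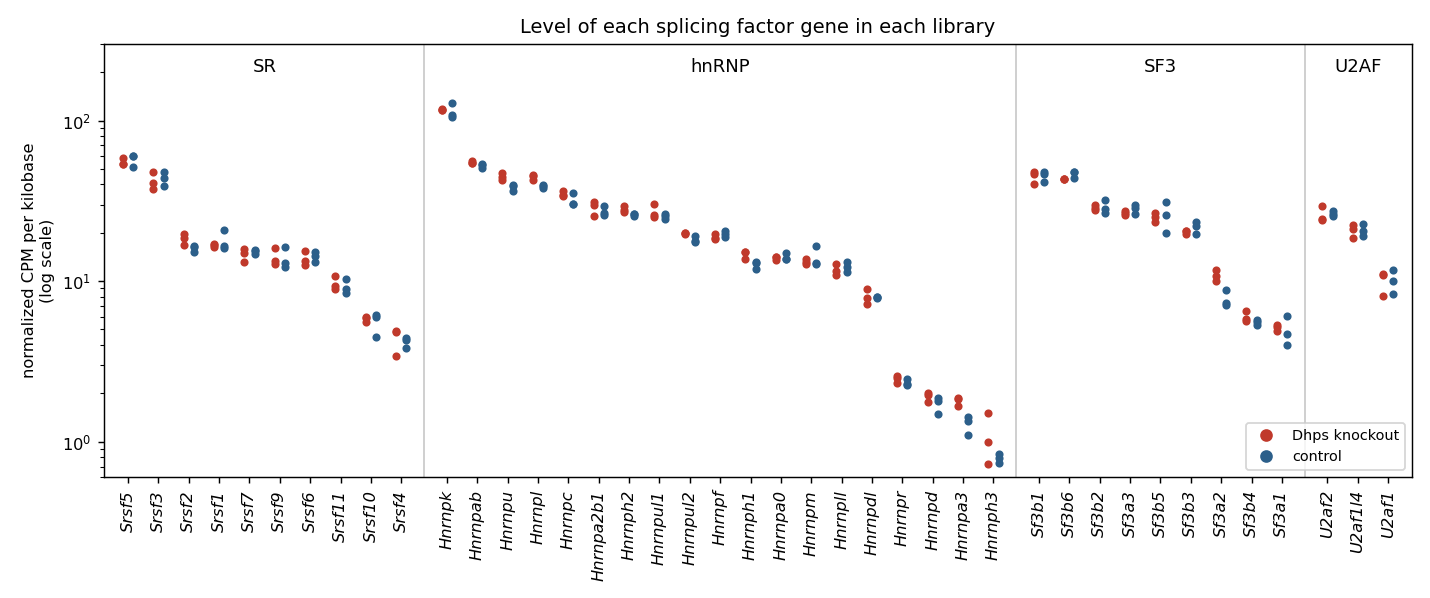
Normalized CPM per kilobase of the deposited exon length (log scale) of each gene in each library, Dhps knockout (red) left of control (blue), ordered within each class by the mean in the knockout libraries. Levels run from 0.791 (mean of Hnrnph3 in control libraries) to 117 (mean of Hnrnpk in knockout libraries), and the pairs of groups stay close at every level.

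Part of these genes share sequence or exons with other genes, which bears on how firmly their counts belong to them. Of the 41, 13 had exonic bases in common with another gene of GENCODE M21. The overlap was largest for U2af1l4 (99.5% of its exonic bases, with Gm49396 on the same strand and Psenen on the opposite strand), Srsf4 (68.8%, Gm12992 on the opposite strand), Srsf2 (39.5%, Mfsd11 and Mettl23 on the opposite strand) and Hnrnpab (31.8%, Phykpl on the opposite strand). The sources used here do not say whether counting used strand, so reads from these stretches cannot be assigned with certainty. In 13 genes more than 20% of the 50-base words of the longest coding transcript also occurred in transcripts of other genes, antisense genes included. The share was largest for U2af1l4 (97.2%), Hnrnpf (67.3%), Srsf4 (65.4%), U2af1 (59.4%) and Sf3b4 (51.2%). Hnrnpa3, at 28.2%, shared such words with 46 other genes. Sf3b1, Hnrnpu, Srsf6, Srsf9, Srsf11, Hnrnpa0, Hnrnpll and Sf3b6 shared none.

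Among SR genes, Srsf2 had the smallest p. The protein, also known as SC35, activates exons and is also linked to transcription elongation. Srsf2 (chromosome 11, 116849897 to 116853094, minus strand, mm10) had 35.5, 31.8 and 37.3 normalized CPM in knockout libraries and 28.8, 31.3 and 31.2 in control libraries. All knockout libraries lay above all control libraries, by a narrow margin in knockout library 2. The log2 fold change was 0.20 (95% interval -0.03 to 0.42) and did not pass (edgeR's quasi-likelihood test, adjusted p = 0.835). Srsf1, the founding member of the family, had 94.1, 90.7 and 93.4 normalized CPM in knockout libraries and 89.7, 116 and 92.0 in control libraries. Its log2 fold change of -0.10 rested on control library 2, without which it was 0.03. Srsf10, which acts as a splicing repressor when dephosphorylated, had 32.7, 32.8 and 30.8 against 24.6, 32.9 and 33.9 normalized CPM, with control library 1 as the low one.

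The most abundant SR genes differed little between the groups. Srsf3, the smallest SR protein, which also takes part in mRNA export, had 113, 124 and 145 normalized CPM in knockout libraries and 119, 134 and 145 in control libraries. Srsf5 had 97.2, 88.1 and 89.0 in knockout libraries and 99.0, 99.6 and 85.4 in control libraries. For both genes the groups overlapped over most of their range, with log2 fold changes of -0.06 and -0.05 and intervals of -0.28 to 0.17 and -0.25 to 0.15. Of the remaining SR genes, Srsf4, Srsf9 and Srsf11 lay at 0.07, 0.02 and 0.07 on the log2 fold change scale, and Srsf6 and Srsf7 at -0.05 each. Of the 10 SR genes, 5 lay above 0 and 5 below, with a median log2 fold change of -0.017.

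Of the 19 hnRNP genes 15 had a log2 fold change above 0, with a median of 0.09, where 48.7% of all genes lay above 0. In 7 of the 19 every knockout library lay above every control library, against 5.73% of all genes. In 0 of the 19 every knockout library lay below, against 5.45%. Those 7 were Hnrnpa3, Hnrnpu, Hnrnpl, Hnrnph1, Hnrnpul2, Hnrnph2 and Hnrnpab. Genes of a family measured in the same 6 libraries are not independent, and the fold changes were small, so that the count is a description of these libraries.

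Hnrnpa3, a member of the A/B group that binds RNA and telomeric repeats, had the largest fold change of the class. Hnrnpa3 had 9.77, 9.69 and 8.77 normalized CPM in knockout libraries and 5.78, 7.39 and 7.04 in control libraries. The groups did not overlap, and the log2 fold change was 0.48 (SE 0.17, unadjusted p = 0.011), which did not pass (edgeR's quasi-likelihood test, adjusted p = 0.588). Behind it stood only 125 to 143 reads in knockout and 81 to 115 reads in control libraries, in a gene (chromosome 2, 75659259 to 75669407, plus strand) that shares sequence with many others.

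Hnrnpu and Hnrnpl were far better covered. Hnrnpu, also called SAF-A, is a nuclear scaffold protein that binds chromatin and RNA. It had 157, 172 and 163 normalized CPM in knockout libraries and 134, 146 and 144 in control libraries, a log2 fold change of 0.21 (95% interval 0.03 to 0.40, adjusted p = 0.677 in edgeR). Hnrnpl binds CA-rich elements and represses or activates nearby exons. It had 97.1, 91.8 and 97.6 normalized CPM in knockout libraries and 81.8, 83.3 and 84.9 in control libraries, a log2 fold change of 0.20 (95% interval 0.01 to 0.38, adjusted p = 0.749 in edgeR). In both genes all knockout libraries lay above all control libraries, and neither passed. Hnrnpll, the paralog that controls exons of the leukocyte antigen gene Ptprc, lay at -0.06 on the log2 fold change scale, with overlapping groups. The level of Hnrnpl relative to Hnrnpll, per kilobase, was 3.81 ± 0.418 in knockout and 3.18 ± 0.171 in control libraries (SD, n = 3 each). The groups overlapped in this ratio, with knockout library 2 at 3.34 and control library 1 at 3.35.

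**Figure D4:**
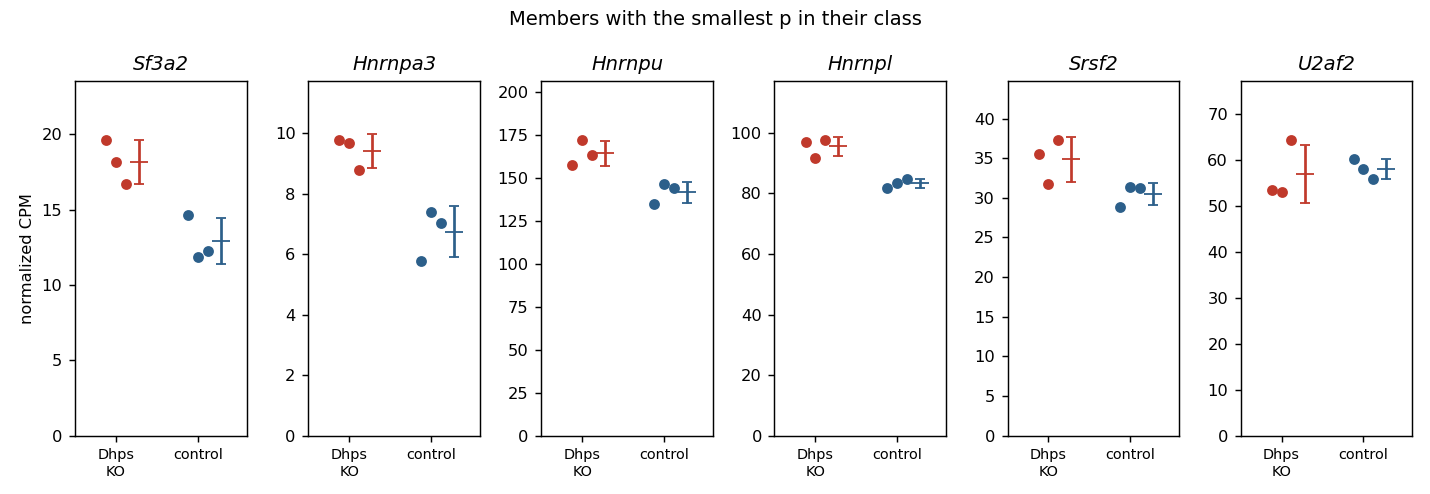
Normalized CPM in each library (points, linear axes from 0), with the mean and SD of each group (n = 3 each), Dhps knockout left of control, for the 4 members with an unadjusted p under 0.05 (Sf3a2, Hnrnpa3, Hnrnpu and Hnrnpl) and the members of the SR and U2AF classes with the smallest p (Srsf2 and U2af2). The groups are apart in every panel but that of U2af2, where knockout library 3, at 64.4, lies above the control libraries.

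The F and H group, whose members bind runs of guanine, held genes on both sides of 0. Hnrnph1 had 30.6, 33.9 and 33.8 normalized CPM in knockout libraries and 29.5, 26.6 and 29.0 in control libraries (log2 fold change 0.21). Hnrnph2, on the X chromosome, had 69.0, 63.4 and 65.5 against 62.0, 59.8 and 61.6 (0.11). For Hnrnpf the values were 54.8, 59.0 and 55.8 in knockout libraries and 59.2, 56.1 and 61.4 in control libraries (-0.06). The knockout libraries thus lay above the control libraries for Hnrnph1 and Hnrnph2. For Hnrnpf the groups overlapped, with knockout libraries 1 and 3 below all control libraries and knockout library 2 among them. Per kilobase, Hnrnpf exceeded Hnrnph1 by 1.33, 1.30 and 1.23 times in knockout libraries and by 1.49, 1.57 and 1.58 times in control libraries, without overlap. All other per-kilobase gene ratios examined had overlapping groups, among them that of Hnrnph1 to Hnrnph2. Hnrnph1 by itself already had its groups apart. For Hnrnpf 67.3% of the 50-base words occur in other genes, and the part of this in the ratio of Hnrnpf to Hnrnph1 was not tested. Hnrnph3 had 23 to 42 reads in knockout and 21 to 25 in control libraries, and its log2 fold change of 0.43 (95% interval -0.26 to 1.12) came down to 0.13 without knockout library 2.

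Further hnRNP genes differed little. Hnrnpk, the KH-domain protein with roles from transcription to translation, had 351.0, 359.7 and 350.9 normalized CPM in knockout libraries and 327, 319.5 and 388 in control libraries. Control library 3 was the highest of the 6 and control library 2 the lowest (log2 fold change 0.04, 95% interval -0.15 to 0.23). Hnrnpab, the second most abundant, had 138, 142 and 139 against 137, 135 and 129 normalized CPM, with knockout library 1 just above control library 1 (0.07). Hnrnpul2 had 114.4, 113.5 and 112.7 in knockout libraries and 101.7, 100.6 and 109.5 in control libraries (0.13), and Hnrnpc, which measures transcript length and guards against exonization of Alu elements in human cells, lay at 0.14 with overlapping groups. Hnrnpa2b1 and Hnrnpul1 lay at 0.09 each, Hnrnpd, the AU-rich element binding protein AUF1, at 0.16, and Hnrnpr at 0.07. Hnrnpdl was at 0.02. The members below 0, beside Hnrnpf and Hnrnpll, were Hnrnpm (-0.10) and Hnrnpa0 (-0.023). Hnrnpm had 42.1 normalized CPM in control library 1 and 32.3 to 34.9 in the other 5 libraries, and lay at 0.04 without control library 1.

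The SF3 class held the member with the smallest p of all 41. Sf3a2 encodes the middle subunit of SF3A, which with SF3B completes the mature U2 snRNP. Sf3a2 (chromosome 10, 80798735 to 80804922, plus strand, mm10) had 19.6, 18.1 and 16.7 normalized CPM in knockout libraries and 14.6, 11.8 and 12.3 in control libraries. The groups did not overlap. The means were 18.1 ± 1.46 and 12.9 ± 1.51 (SD, n = 3 each), or 1.40 times as much in the knockout libraries. On the log2 scale the fold change was 0.49 (SE 0.14, unadjusted p = 0.0022). Over all genes it did not pass (edgeR's quasi-likelihood test, adjusted p = 0.366), and across the alternatives its adjusted p ran from 0.122 without control library 1 to 0.878.

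The other SF3A subunits had overlapping groups. Sf3a1 had 25.3, 26.3 and 23.9 normalized CPM in knockout libraries and 19.6, 23.0 and 29.9 in control libraries, which spread more widely. Sf3a3 had 43.5, 45.2 and 46.2 against 48.3, 44.7 and 50.8. Their log2 fold changes were 0.06 and -0.09, with 95% intervals of -0.23 to 0.35 and -0.29 to 0.11. Whether Sf3a2 differed from its partners was not tested.

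In SF3B, Sf3b1, the scaffold of the complex and a gene often mutated in myelodysplastic disease, had 251, 286 and 298 normalized CPM in knockout libraries and 286, 258 and 298 in control libraries. The groups covered nearly the same range, and the log2 fold change was -0.013 (95% interval -0.21 to 0.18). Sf3b6, which contacts the branch point adenosine, had 48.6, 48.2 and 47.9 against 48.8, 53.3 and 53.7 normalized CPM. It was the 1 member of the 41 with every knockout library below every control library, with knockout library 1 and control library 1 nearly level (log2 fold change -0.11, adjusted p = 0.910 in edgeR). Sf3b2 had 96.4, 89.1 and 92.3 against 104, 91.6 and 85.7 normalized CPM, Sf3b3 had 88.4, 84.7 and 87.8 against 99.7, 84.0 and 94.5, and both overlapped. Sf3b4 and Sf3b5 lay at 0.11 and -0.05 on the log2 fold change scale. The median log2 fold change of the 9 SF3 genes was -0.019, with 3 above 0 and 6 below.

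The U2AF genes had fold changes near 0. U2af2, which encodes the large subunit that reads the polypyrimidine tract, had 53.6, 53.1 and 64.4 normalized CPM in knockout libraries and 60.3, 58.0 and 56.0 in control libraries. U2af1, the small subunit that reads the AG of the 3′ splice site, had 10.8, 7.83 and 10.6 against 11.4, 9.77 and 8.09. U2af1l4, which encodes a shorter relative of U2af1, had 19.4, 16.1 and 18.2 against 17.6, 19.5 and 16.5. In all 3 the groups overlapped, and the log2 fold changes were -0.026, -0.0030 and -9.4e-04. The interval of U2af1 was wider, from -0.37 to 0.37, on 93 to 173 reads a library. Per kilobase, U2af2 stood 2.63 ± 0.406 times above U2af1 in knockout and 2.67 ± 0.367 times in control libraries (SD, n = 3 each).

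Other genes of the splicing pathway, in 5 lists, held 0 called genes among 154 measured, by edgeR's quasi-likelihood test with an adjusted p under 0.05 and by DESeq2 and limma-voom. Over all genes 0.104% were called in edgeR. Among 39 proteins of the U4/U6.U5 tri-snRNP and the catalytic steps the median log2 fold change was -0.062, with 25 below 0, and the smallest p belonged to Lsm3 (-0.39) and Snrnp40 (-0.35). Among 21 proteins of the U snRNP core, U1 and U2 it was 0.03, with the Sm protein gene Snrpd2 at -0.52 (15.3, 13.9 and 18.9 normalized CPM in knockout libraries against 23.8, 21.7 and 23.7 in control libraries, adjusted p = 0.290 in edgeR). Sf1, the branch point binding protein that SF3B1 replaces, lay at 0.25. Among 42 other regulators of splice site choice the median was 0.07, with 29 above 0, and the smallest p belonged to Taf15 (0.54), the poly(C) binding protein gene Pcbp2 (0.26) and Tial1 (0.36). The 26 kinases, import factors and SR-related proteins had a median of 0.08, with 18 above 0 and with Acin1 at -0.18, Scaf4 at 0.28 and the SR protein kinase gene Clk1 at 0.22. The 26 genes of the exon junction complex, nonsense-mediated decay and mRNA export had a median of -0.033, with Magohb at 0.61 and the helicase gene Eif4a3 at -0.20. At an unadjusted p under 0.05, 4 of the 154 lay higher and 5 lower in edgeR and limma-voom, and 4 and 3 in DESeq2. In edgeR 3.84% of all genes lay higher and 2.64% lower at that threshold, so these counts are near the background. The 22 proliferation genes, a further list, summed to 654 ± 16.0 normalized CPM in knockout and 655 ± 15.8 in control libraries (SD, n = 3 each).

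**Figure D5:**
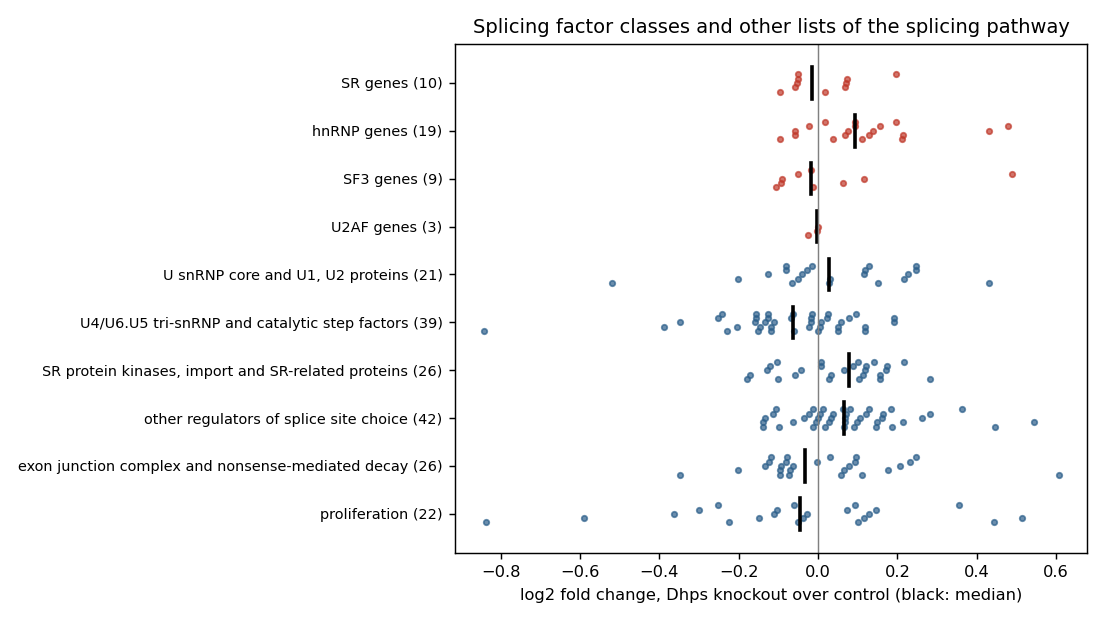
Log2 fold change of Dhps knockout over control for each gene of the 4 splicing factor classes (red) and of 5 other lists of the splicing pathway and the proliferation list (blue), with a black bar at each median and the number of genes in brackets. Medians run from -0.062 for the tri-snRNP and catalytic list to 0.09 for the hnRNP genes.

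Promoter sequences were at hand in RefSeq (GRCm38.p6) for 36 of the 41 genes and were searched over the 250 bases before the start for 6 promoter elements, on both strands. The SF3 genes shared the core of ETS factor sites, CCGGAAG, in 6 of 7 promoters, where 4 of 10 SR, 2 of 17 hnRNP and 0 of 2 U2AF promoters held it, and 15.6% of the 8068 promoters matched to genes of the count table. The windows around it are shown because this element sets the SF3 promoters side by side; capitals mark the core or its reverse complement, and each is written on the strand of its gene.
Sf3a1 (chr11:4160337-4160353, plus strand): gagggcgggaCCGGAAG
Sf3a2 (chr10:80798649-80798675, plus strand): gcctttgctcCCGGAAGggatcgcttc
Sf3a3 (chr4:124714761-124714787, plus strand): ccccaagacaCTTCCGGgacacgcgga
Sf3b2 (chr19:5295456-5295478, minus strand): gattacgcaaCCGGAAGtttctg
Sf3b3 (chr8:110847016-110847042, minus strand): ccggtgggcgCTTCCGGgcttgcgagg
Sf3b6 (chr12:4817513-4817539, plus strand): cgccccgcccCTTCCGGtccgcaatcc
Sf3b6 (chr12:4817528-4817554, plus strand): ggtccgcaatCCGGAAGcgttctggag
The core stood within 90 bases of the start in all of these but Sf3b3, where it stood 229 bases away. Sf3a2, the SF3 gene with the largest fold change, and Sf3a3 and Sf3b6, with fold changes below 0, all carry it. In all 6 of these promoters the 250 bases overlapped annotated exons of GENCODE M21. These were exons of the gene itself for Sf3a1, Sf3a2, Sf3a3 and Sf3b6. Exons of another gene lay there for Sf3a1 (Ccdc157), Sf3a2 (Plekhj1), Sf3b2 (AC125059.3) and Sf3b3 (Cog4).

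The CCAAT box, CCAAT, was found in 11 of 17 hnRNP promoters, 3 of 10 SR, 2 of 7 SF3 and 1 of 2 U2AF promoters, against 36.0% of the promoters of the table. The GC box, GGGCGG, occurred in 25 of the 36 promoters, against 61.4%. The cyclic AMP response core, TGACG, occurred in 16 of the 36 (28.5% of the table), an NRF1 core, GCGCATG, in 4 (6.38%) and a TATA box, TATAAA, in 4 (5.91%). No motif searched contains another on either strand, and a match is a description of the sequence. The promoter of Hnrnpu, which of the 4 members with an unadjusted p under 0.05 had the highest normalized CPM, is shown as a GC-rich example without a TATA box, with its GC boxes in capitals; it lies on the minus strand before the start.
Hnrnpu (chr1:178337816-178338065, minus strand): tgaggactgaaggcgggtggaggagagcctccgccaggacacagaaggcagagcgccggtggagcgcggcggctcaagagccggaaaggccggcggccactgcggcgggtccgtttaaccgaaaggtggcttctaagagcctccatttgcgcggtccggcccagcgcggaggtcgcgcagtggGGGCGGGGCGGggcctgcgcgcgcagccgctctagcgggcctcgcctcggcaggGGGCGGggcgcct
Its GC content was 73.6%, against a median of 62.6% over the 36 promoters and 60.0% over the promoters of the table. By class the median GC content was 66.8% for SR, 61.6% for hnRNP, 60.4% for SF3 and 64.8% for U2AF promoters.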

How the data were processed

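Per the labels' protocols, 6 libraries of total RNA from bone marrow-derived macrophages were read with Ion Proton semiconductor sequencing. The deposited table holds raw counts per gene, which the authors had not normalized, with exon coordinates and exon length. Tools listed, with no role or order, in the submitters' processing notes are edgeR, featureCounts, Subread 1.5.0 and STAR 2.4.2a, beside the build mm10; the sources used here give neither the annotation nor the use of strand. All 10551 deposited genes exceeded 1 CPM in at least 3 libraries, and all 41 members passed filterByExpr with a minimum count of 10. Genotype was fitted over all genes with edgeR 4.0.16 in R 4.3.3 (TMM scaling, quasi-likelihood test, two-sided, Benjamini-Hochberg adjustment), with DESeq2 1.42.0 and limma 3.58.1 as alternatives. The standard error is the size of the log2 fold change over the square root of F. The fit was first tested on simulated data; other scaling, filters, a replicate block and leaving out each library were tried as alternatives. Exon overlaps and shared 50-base words come from GENCODE M21. Values per library were given for the 3 most abundant members and the 3 with the smallest p in each class, and for members without overlap; others were named after their values were seen. The members and lists were chosen with earlier results of these data known.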

Additional observations from a re-analysis of the deposited data

How the results depend on the processing

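None of the 41 genes was called under any alternative. The median log2 fold change over the 41 was 0.06 without size factors, which moved the median of all genes to 0.02. With 1 library left out, the class medians ran from -0.031 to 0.02 for SR, 0.081 to 0.13 for hnRNP, -0.048 to 0.0014 for SF3 and -0.065 to 0.07 for U2AF genes. Over all genes, 10 were called higher and 1 lower; the counts were 26 and 9 with the replicate number as a block, 19 and 3 with DESeq2, 7 and 0 without Lyz2 in the counts, and 3 to 14 and 1 to 5 with 1 library left out (higher, 3 without control library 2 and 6 without control library 3; lower, 5 without control library 1 and 2 without knockout library 2). The cause was not tested. Same-numbered libraries correlated at 0.14, 0.02 and 0.15 in their deviations from the group means, and not every library correlated best with its own number, so the numbers were not taken to pair the samples. With that replicate block Dhps passed (adjusted p = 0.033, log2 fold change -0.61).

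The sign of fold changes near 0 depended on the setting. Without size factors it was 0.0066 for Sf3b2, 0.011 for Sf3b1, 0.023 for U2af1, 0.023 for U2af1l4 and 0.0011 for Hnrnpa0, and U2af1l4 was at 0.0011 with DESeq2 and with its size factors in edgeR. With 1 library left out, 19 genes crossed 0, and 22 of the 41 kept their sign throughout. The ranges of those 19 were -0.066 to 0.24 for Sf3a1, -0.20 to 0.11 for Sf3b5, -0.079 to 0.063 for Sf3b2, -0.066 to 0.062 for Sf3b1, -0.16 to 0.034 for Srsf1, -0.059 to 0.15 for Srsf10, -0.015 to 0.15 for Srsf11, -0.16 to 0.024 for Srsf3, -0.11 to 0.025 for Srsf7, -0.14 to 0.011 for Srsf6, -0.014 to 0.23 for Srsf4, -0.085 to 0.16 for Srsf9, -0.12 to 0.022 for U2af2, -0.11 to 0.13 for U2af1, -0.057 to 0.073 for U2af1l4, -0.16 to 0.039 for Hnrnpm, -0.011 to 0.13 for Hnrnpk, -0.042 to 0.019 for Hnrnpa0 and -0.065 to 0.088 for Hnrnpdl. Depth limits Hnrnph3 most, with 21 to 42 reads a library.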
